A study of Mus musculus with 10 samples.

Results

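Antisense units across gene ends were transcription units (TUs) that ran opposite to an annotated gene and were placed in the deposited annotation across the end of one of its transcripts. They carry the class Antisense_TES (antisense to a transcript end site) there. Members were kept where more than 10 fragments fell in at least 2 of the 10 libraries. Of 870 such units, 594 passed this filter, among 28459 of 40779 units of every class. The 276 units that did not pass had a mean of 2.6 to 8.3 fragments per library. The 20 units that passed by the narrowest margin had means of 5 to 9.5 fragments, and the 36 that missed it by the narrowest margin had means of 3.4 to 8.3. Of the 594, 25 would not have passed on the depleted libraries alone, so a decrease in these was favoured by the filter, and 11 of them are among the 74 units that fell at 6 hpd.

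The libraries were TT_chem-seq of mouse embryonic stem cells (parent line E14) in which SOX2, a transcription factor of the stem cell state, carries an FKBP tag at its own locus. Adding 500 nM dTAG-13 sends the tagged protein to the proteasome. All groups came from this 1 tagged line and grew in serum-free medium with LIF and 2 inhibitors. Not treated (NT) cells received DMSO, and the others received dTAG-13 for 0.5, 1, 2 or 6 h (hours post depletion, hpd), with 2 replicates per group. In TT_chem-seq a short pulse of the nucleoside analogue 4SU, here 2 mM for 10 min, marks RNA made during the pulse, which is then fragmented and purified. The reads report recent synthesis on each strand rather than the amount of stable RNA. The question put to these units was how their transcription, and its balance with the gene opposite, moved over the time course.

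Genes in mammals are often transcribed on both strands. Antisense transcripts that cross a gene's end can begin at an enhancer or promoter lying beyond the gene, or run on from a neighbouring gene that points towards it. Most such RNA is short-lived, since nuclear decay by the exosome and early termination by the Integrator complex remove it, and labelling of new RNA is one way to see it.

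The libraries held 11131490 to 25854106 counted fragments, and the antisense units across gene ends took 0.90 to 0.96% of them in each library. Replicate 2 had the larger share in each group. The 10 most counted units held 38.6% of these fragments. Levels are given as counts-per-million (CPM), scaled for library composition. For the cell markers, CPM were scaled to total counts only. All 8 stem cell markers looked for were counted in every library, with Sox2 itself between 222 and 298 CPM. Its transcript does not check the depletion, which acts on the protein. Of 16 markers of other lineages and of the primed state, 5 had no unit, and the highest level of the others in any library was 17.97 CPM, of Pax6. Nothing in the labels says whether the replicates were separate cultures, so p-values measure the spread between these samples only. In bulk libraries fewer transcribing cells and less RNA per cell cannot be told apart.

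The class name covered units of several kinds. A comparison with gene annotation on the units' own strand, made after the table had been read, found 382 of the 594 with no annotated gene on their strand, 103 over a protein-coding gene, 86 over another annotated gene and 23 that overlapped a gene in part. A unit counted as over a gene where the overlap was at least 50% of the gene or of the unit, so some held a small gene within a longer unit. The units over protein-coding genes included those over Chka, Abl2, Fmnl2, Myh10, Rptor and Cep290, whose own transcripts run far enough to cross the end of the gene opposite. These units are therefore antisense to one gene and sense to another. The most counted unit (transcribed-unit_29547, 713 to 873 CPM) lay over Gm2379 and did not pass the test at any time. Lncenc1, a long non-coding RNA gene of stem cells, overlapped 36.6% of this unit and did not meet that rule. A 618 bp unit over Rn18s-rs5 (transcribed-unit_35618) had the highest density, and its reads may belong to any copy of the ribosomal RNA genes, so its value is uncertain.

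For 415 of the 594 units a gene unit on the opposite strand could be paired, 154 where the unit covered the end of the gene's own TU and 261 where it covered the annotated end only. Of these 415, 402 gene units passed the count filter. For 179 units no Single Gene unit was found, although in 94 of them an annotated gene did end inside the unit. Of the 415 antisense units, 220 lay wholly inside the TU of the gene opposite. The end used here is that of the single transcript assigned to the gene unit, and in 44 of the 415 pairs, among them those of Zmynd8, Eif4e2 and Chid1, no RefSeq gene on the opposite strand ended inside the antisense unit. The antisense units began a median of 6649 bp beyond the end of that transcript (range 26 to 280500 bp) and crossed that end in 396 of 415 pairs, reaching a median of 3664 bp into the gene. Their median length was 9880 bp. Per kb of length the median antisense unit had 0.230 CPM, against 0.799 for Single Gene units, 0.370 for antisense units within gene bodies and 0.267 for antisense units across gene starts. In NT the antisense unit was denser than its gene in 116 of the 402 pairs.

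The sequence around the first base of 5 units is given below, from 250 bases before the start to 50 after it, in the direction of transcription. They were chosen as examples of decreases (the units opposite Zmynd8, Rbmxl2 and Ndufb5) and of an increase (the unit over Jaml). The unit opposite Platr26 stands for a pair in which the gene fell and the unit did not pass the test. Other units had decreases as clear, and their sequences are not given. The positions are chr2:165804514-165804813 on the plus strand, chr7:107239448-107239747 on the minus strand, chr3:32764893-32765192 on the minus strand, chr9:45091719-45092018 on the plus strand and chr2:71751435-71751734 on the minus strand, all in mm10. Capitals mark CATTGT, the core SOX motif, on either strand. The starts come from segmented coverage and are not mapped start sites.
opposite Zmynd8: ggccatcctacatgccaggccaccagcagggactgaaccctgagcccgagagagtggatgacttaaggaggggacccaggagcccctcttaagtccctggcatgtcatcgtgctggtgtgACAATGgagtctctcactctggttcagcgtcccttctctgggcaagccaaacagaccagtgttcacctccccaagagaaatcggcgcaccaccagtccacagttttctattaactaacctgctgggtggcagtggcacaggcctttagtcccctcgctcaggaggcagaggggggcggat
opposite Rbmxl2: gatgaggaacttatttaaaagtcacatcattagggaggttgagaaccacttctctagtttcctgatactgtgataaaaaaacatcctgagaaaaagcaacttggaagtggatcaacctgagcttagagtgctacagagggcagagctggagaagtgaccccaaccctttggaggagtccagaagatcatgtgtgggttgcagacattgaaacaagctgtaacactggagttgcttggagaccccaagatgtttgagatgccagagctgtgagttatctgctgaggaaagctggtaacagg
opposite Ndufb5: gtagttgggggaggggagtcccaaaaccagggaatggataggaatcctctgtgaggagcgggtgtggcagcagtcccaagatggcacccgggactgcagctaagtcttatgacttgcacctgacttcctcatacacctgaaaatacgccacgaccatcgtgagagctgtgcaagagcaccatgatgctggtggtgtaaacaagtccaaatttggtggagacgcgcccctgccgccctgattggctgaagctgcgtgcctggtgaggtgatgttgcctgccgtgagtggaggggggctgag
over Jaml: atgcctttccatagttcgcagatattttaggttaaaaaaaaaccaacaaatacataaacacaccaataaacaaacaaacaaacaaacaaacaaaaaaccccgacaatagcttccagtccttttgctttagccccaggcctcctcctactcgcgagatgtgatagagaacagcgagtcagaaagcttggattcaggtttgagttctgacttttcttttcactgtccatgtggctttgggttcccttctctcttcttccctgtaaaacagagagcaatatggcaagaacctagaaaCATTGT
opposite Platr26: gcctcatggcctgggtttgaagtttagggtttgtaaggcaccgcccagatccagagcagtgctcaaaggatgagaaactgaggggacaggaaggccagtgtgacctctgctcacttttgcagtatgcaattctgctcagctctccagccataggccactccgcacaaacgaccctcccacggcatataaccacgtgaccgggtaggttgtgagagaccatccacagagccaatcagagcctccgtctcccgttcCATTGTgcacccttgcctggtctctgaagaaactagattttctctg
The letters CATTGT occurred in the window of 62 of the 594 antisense units (10.4%) and of 9.86% of all 28459 units. They occurred in 7 of the 81 antisense units that fell at any time (8.64%). In a 1000-base window these shares were 35.0%, 31.0% and 35.8%. The OCT letters ATGCAAAT were in 19 antisense windows (3.20%) and in 2.22% of all windows, and of the 28 units that fell at 0.5 or 1 hpd 3 held them. The composite SOX-OCT motif was in 3 of all windows and in none of the antisense ones. Both strands were searched, and overlaps between the motifs were not removed. A matching window does not show binding.

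The starts of these units were poor in CpG. The median ratio of observed to expected CpG was 0.278 in the 300-base windows of the 594 units, 0.422 over all units and 0.617 over Single Gene units. A ratio of at least 0.6 was found for 17.9% of the antisense units, for 11.8% of those with no annotated gene on their strand and for 37.9% of those over a protein-coding gene. CpG-rich starts are typical of promoters of broadly used genes. Only 66 of the 594 units started within 1000 bp of the start of another unit that ran the opposite way, and 16 started within 1000 bp downstream of a unit on the same strand.

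More antisense units across gene ends were called lower than higher at each time, with few calls at 0.5 hpd. At 0.5 hpd 3 units rose and 8 fell (1.85% of 594 called), where edgeR's quasi-likelihood test at an adjusted p under 0.05 called 1.31% of all units, 0.527% higher and 0.787% lower. At 1 hpd 9 rose and 28 fell (6.23%), beside 5.75% of all units, 2.15% higher and 3.61% lower. At 2 hpd 14 rose and 44 fell (9.76%), beside 9.83% of all units, 4.26% higher and 5.57% lower. At 6 hpd 24 rose and 74 fell (16.5%), beside 15.8% of all units. At 6 hpd 12.5% of the antisense units fell where 9.2% of all units did, and 4.04% rose where 6.61% of all units did. Between 6 and 1 hpd directly, 9 were higher and 23 lower at 6 hpd, where 4.88% of all units were called, 1.96% higher and 2.92% lower. In a joint test of all 4 times 82 passed (13.8%), beside 12.3% of all units. The median log2 fold change at 6 hpd was -0.16 over the antisense units and -0.04 over all units. Without NT replicate 2 these medians were -0.03 and 0.00, and that of the antisense units at 1 hpd went from -0.07 to 0.07.

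The counts moved with single libraries. At 0.5 hpd none rose without NT replicate 1, NT replicate 2 or 0.5 hpd replicate 2 and 1 without 0.5 hpd replicate 1, and 4, 5 and 4 fell without NT replicate 2 or 0.5 hpd replicate 1 or 2. At 1 hpd 3 rose without NT replicate 1, and without NT replicate 2 or 1 hpd replicate 1 or 2 just 1 rose and 9, 10 and 12 fell. At 2 hpd leaving out NT replicate 2 gave 9 that rose and 21 that fell, leaving out 2 hpd replicate 1 gave 22 that fell, and leaving out its replicate 2 gave 31 that rose. At 6 hpd the loss of NT replicate 2 left 10 higher and 31 lower, that of 6 hpd replicate 1 left 11 and 41, and that of its replicate 2 left 10 and 47. Without a threshold, at 0.5 hpd 112 of the 594 had both libraries above both NT libraries (18.9%) and 100 had both below (16.8%), where over all units 15.6% lay above and 19% below.

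Other units that were antisense to genes or outside them also had more decreases than increases. At 6 hpd 10.8% of 2831 antisense units within gene bodies fell and 2.01% rose, 6.77% of 2244 antisense units across gene starts fell and 1.78% rose, and 11.9% of 7793 extragenic units fell and 2.61% rose. Among 14979 Single Gene units 7.73% fell and 10.4% rose. No test was made between the classes. Among units with a mean of 50 or more fragments, 42 of 221 antisense units across gene ends fell at 6 hpd (19.0%) and 22 rose (9.96%), beside 9.74% and 10.9% of all units at that level.

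The decreases lay mostly in units with no annotated gene on their strand, and the increases were spread over several kinds. Of the 382 units with no such gene, 61 fell at 6 hpd (16.0%) and 8 rose, with a median log2 change of -0.31. Of the 103 over a protein-coding gene, 5 fell and 11 rose (10.7%), with a median of 0.14. Of the 86 over another annotated gene 5 fell and 5 rose. At 0.5 hpd all 8 units that fell were without an annotated gene on their strand. These counts are a description, and whether the kinds differ was not tested.

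**Figure D1:**
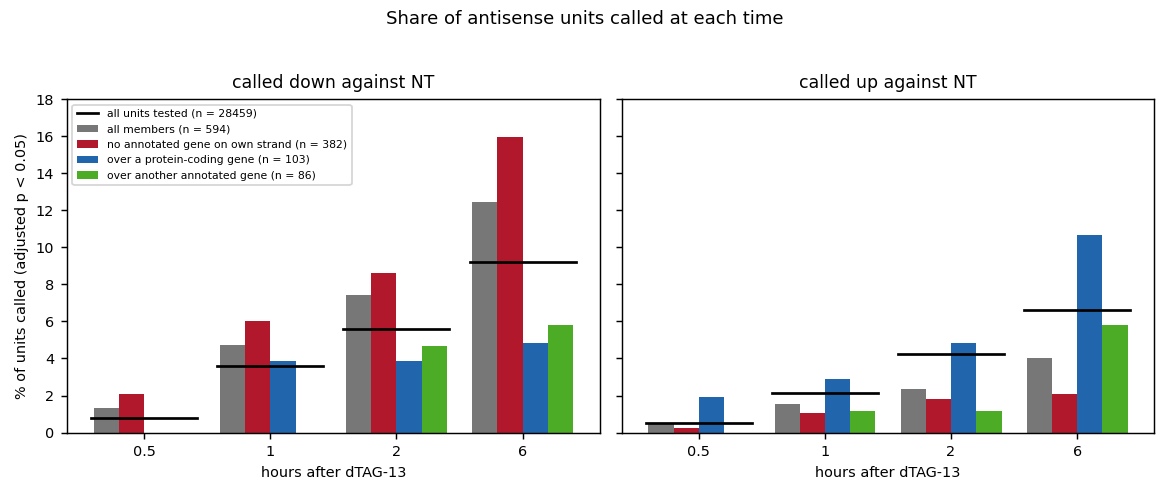
Percent of antisense units across gene ends called down (left) and up (right) against NT at 0.5, 1, 2 and 6 h after dTAG-13, for all 594 units and for 3 kinds of own-strand annotation, with a black line at the percent of all 28459 units. At 6 hpd the bar for units with no annotated gene on their strand stands at 16.0% down, above the line at 9.2%, and the bar for units over protein-coding genes stands at 10.7% up.

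Over the time course 81 units fell and 32 rose at 1 or more times, in comparisons that share the NT libraries, and 1 of them did both. Decreases of over 2-fold numbered 5, 20, 32 and 54 at the 4 times. Calls of any size also grew over all units, with 0.787, 3.61, 5.57 and 9.2% lower at these times. The shares of all units called at any time, or lower by over 2-fold, were not counted. The 80 units that fell and never rose had a median length of 13980 bp and a median NT level of 5.18 CPM. These medians were 9046 bp and 1.49 CPM for the 482 units never called and 33400 bp and 6.69 CPM for the 31 that rose and never fell. At 6 hpd 19.0% of units with a mean of 50 or more fragments fell and 9.96% rose, against 8.58% and 0.536% below 50. Calls thus went with fragment number, and the NT level is part of each comparison, so these medians are not an independent trait. Of the 80, 62 had no annotated gene on their strand (77.5%, against 63.7% of the units never called).

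The antisense unit with the smallest p at 6 hpd lay opposite Zmynd8, which encodes a chromatin reader (transcribed-unit_3802, chr2:165804763-165834445, plus strand). It began 22360 bp beyond the end of the Zmynd8 transcript to which the gene unit was assigned and crossed that end by 7322 bp, and it lay wholly inside the Zmynd8 TU. It had 275 and 265 CPM in the NT libraries, 156 and 166 at 0.5 hpd, 121 and 132 at 1 hpd, then 104 and 106 at 2 hpd, then 79.4 and 85.4 at 6 hpd. Each later pair of libraries lay wholly below the pair before it. The log2 fold change was -0.74 ± 0.10 (SE, n = 2 per group) at 0.5 hpd (edgeR adjusted p = 0.0013) and -1.71 ± 0.10 at 6 hpd (edgeR adjusted p = 6.3e-08). It passed the test at all 4 times whichever library was left out. Zmynd8 itself had 306 and 293 CPM in NT and 345 and 374 at 6 hpd, and did not pass the test at any time.

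The unit opposite Rbmxl2, a germ cell RNA-binding protein gene, fell further (transcribed-unit_17194, chr7:107210594-107239497, minus strand). Its levels were 19.99 and 22.53 CPM in NT, 12.2 and 11.9 at 0.5 hpd, 5.90 and 6.04 at 1 hpd, then 2.83 and 3.33 at 2 hpd, then 2.46 and 3.14 at 6 hpd. The first 3 steps each separated the libraries fully, and the pairs at 2 and 6 hpd overlapped. The log2 fold changes were -0.82 ± 0.15, -1.83 ± 0.16, -2.79 ± 0.17 and -2.91 ± 0.18. The last had an edgeR adjusted p of 7.6e-08, and the first lost its call without NT replicate 2 (0.16) or either library at 0.5 hpd (0.095 and 0.1). This unit began 28581 bp beyond the annotated end of Rbmxl2 and crossed that end by 322 bp, and it lay wholly inside the longer Rbmxl2 TU. Rbmxl2 had 168 and 173 CPM in NT and 153 and 140 at 6 hpd, without a call.

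Opposite Gm32547, a predicted non-coding gene on chromosome 18, transcribed-unit_37151 followed the same course. Its levels were 31.2 and 35.8 CPM in NT, 18.9 and 16.8 at 0.5 hpd, 10.5 and 8.26 at 1 hpd, then 6.37 and 7.42 at 2 hpd, then 6.60 and 6.06 at 6 hpd. All depleted libraries lay below both NT libraries, and those of 2 and 6 hpd overlapped. The log2 fold change was -0.90 ± 0.14 at 0.5 hpd and -2.40 ± 0.16 at 6 hpd (edgeR adjusted p = 1.8e-07). Its first call did not hold without NT replicate 2 (adjusted p = 0.1) or replicate 2 of 0.5 hpd (0.065). Gm32547 did not pass the test at any time.

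Several of the fallen units reached a low level by 0.5 hpd. Opposite Ndufb5, a subunit gene of respiratory complex I, transcribed-unit_6564 (chr3:32747323-32764942, minus strand) had 7.20 and 8.72 CPM in NT, 2.30 and 2.05 at 0.5 hpd, 1.07 and 1.54 at 1 hpd, then 1.21 and 1.69 at 2 hpd, then 0.983 and 0.815 at 6 hpd. Most of its decrease was present at the first time. Its log2 fold change was -1.85 ± 0.24 at 0.5 hpd (edgeR adjusted p = 0.0013) and -3.14 ± 0.28 at 6 hpd (3.3e-06). Opposite Tnrc6a, a gene of the microRNA silencing complex, transcribed-unit_17351 had 5.72 and 5.30 CPM in NT, 1.52 and 1.54 at 0.5 hpd, then 0.702 and 0.932 at 6 hpd. Its change was -1.85 ± 0.26 at 0.5 hpd and -2.73 ± 0.29 at 6 hpd. Neither Ndufb5 nor Tnrc6a passed the test at any time. The units opposite Tnrc6a, Cryz, Sertm1, Gm34554, F3, Srgn, Arfgap3, Platr6 and Scn3a described here were picked after their values were seen.

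The unit opposite Eif4e2, a cap-binding repressor of translation, was almost lost (transcribed-unit_1789, chr1:87224764-87232295, minus strand). It had 31 fragments in each NT library and 1 or 2 in each depleted library. The depth-scaled ratio of NT over depleted was 20.2 at 0.5 hpd (95% interval 7.51 to 76.5, counting error only) and 22.7 at 6 hpd (7.41 to 113). It passed the count filter through the NT libraries only, so these values are a description. Eif4e2 fell as well, from 194 and 216 CPM in NT to 121 and 125 at 0.5 hpd, then 110 and 108 at 6 hpd, changes of -0.73 ± 0.10 and -0.91 ± 0.10 on the log2 scale. On both strands most of the decrease was present at the first time measured.

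Other units fell step by step. Opposite Sertm1, transcribed-unit_5732 had 62 and 86 fragments in NT and 1 in each library at 6 hpd, and its NT over depleted ratio went from 4.11 (2.94 to 5.83) at 0.5 hpd over 13.3 and 38.2 to 81.2 (22.1 to 677) at 6 hpd. Opposite Cryz, a quinone reductase gene, transcribed-unit_7346 had 16.4 and 25.8 CPM in NT, 11.5 and 15.3 at 0.5 hpd, 6.33 and 9.17 at 1 hpd, then 4.55 and 5.96 at 2 hpd, then 2.95 and 4.02 at 6 hpd. Its first passing change was -1.43 ± 0.24 at 1 hpd, and at 6 hpd it was -2.58 ± 0.27. Cryz passed the test at 1 hpd only, at -0.58 ± 0.15.

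**Figure D2:**
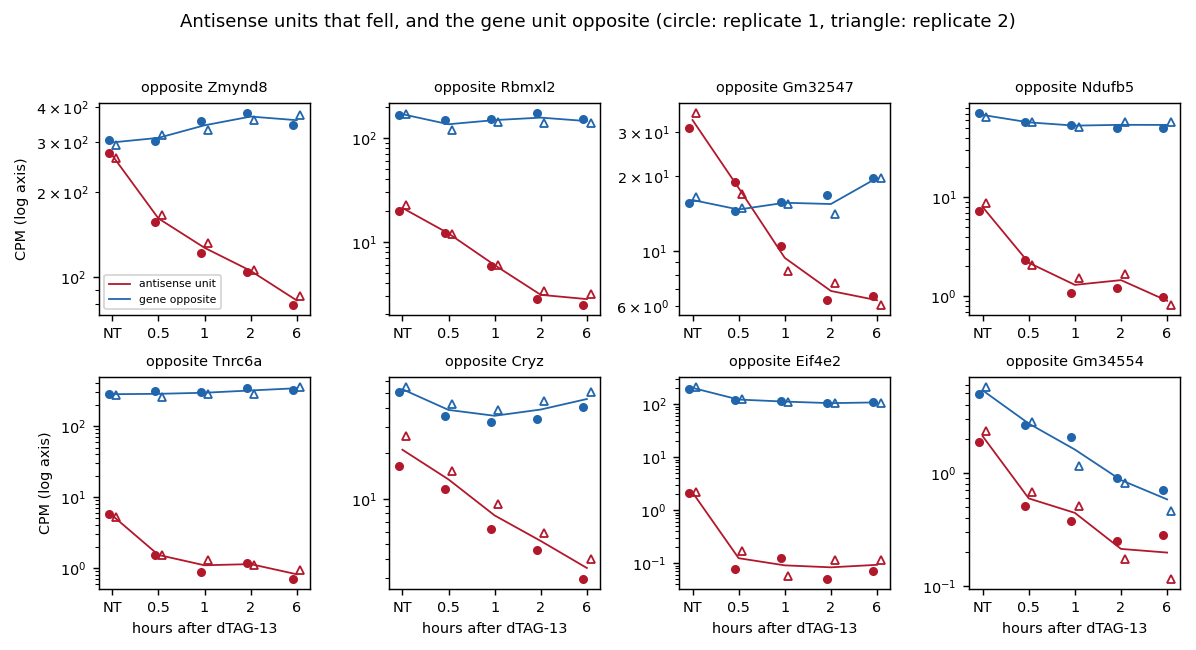
CPM (log axis) of 8 antisense units (red) and of the gene opposite (blue) in NT and at 0.5, 1, 2 and 6 h after dTAG-13, with circles for replicate 1, triangles for replicate 2 and lines through the mean. The unit opposite Zmynd8 goes from 275 and 265 to 79.4 and 85.4 CPM while the points for Zmynd8 stay near 300 or above, and opposite Eif4e2 and Gm34554 both strands are lower.

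Increases were fewer and mostly smaller. At 6 hpd 6 of the 24 risen units were over 2-fold higher, and 11 of the 24 lay over a protein-coding gene on their own strand.

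The unit opposite D930020B18Rik (transcribed-unit_23769, chromosome 10) climbed over the time course. It had 15.5 and 16.8 CPM in NT, 17.7 and 22.3 at 0.5 hpd, 20.8 and 23.9 at 1 hpd, then 25.2 and 29.7 at 2 hpd, then 31.5 and 33.2 at 6 hpd. The depleted libraries all exceeded NT, and those at 6 hpd exceeded all others. The change was 0.76 ± 0.14 at 2 hpd (edgeR adjusted p = 0.0026) and 1.00 ± 0.14 at 6 hpd (0.00019). The gene opposite stayed between 1.35 and 2.81 CPM without a call.

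Some increases came and went. The unit opposite Chid1, a chitinase domain gene, was the one unit that rose at one time and fell at another (transcribed-unit_16210, chr7:141503358-141521965, plus strand). It had 3.63 and 5.01 CPM in NT, 9.25 and 11.8 at 0.5 hpd, 7.65 and 8.71 at 1 hpd, then 2.22 and 2.86 at 2 hpd, then 1.12 and 1.92 at 6 hpd. The libraries of 0.5 and 1 hpd lay above both NT libraries and those of 2 and 6 hpd below both. The log2 fold change was 1.27 ± 0.23 at 0.5 hpd (edgeR adjusted p = 0.012), 0.92 ± 0.24 at 1 hpd (0.03) and -1.47 ± 0.29 at 6 hpd (0.003). Between 1 and 6 hpd it fell by 2.40 ± 0.27 (0.00011). The first call did not hold without NT replicate 1 (0.13) or 2 (0.057) or without 0.5 hpd replicate 2 (0.095). The call at 1 hpd did not hold without any 1 of the 4 libraries compared (0.055 to 0.21), nor did that at 6 hpd without NT replicate 2 (0.053). Chid1 stayed between 25.3 and 32.0 CPM in every library.

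The unit over Kifc3, a minus-end kinesin gene, rose and returned (transcribed-unit_19263, chromosome 8, with no gene unit paired). It had 9.09 and 8.21 CPM in NT, 15.1 and 13.9 at 0.5 hpd, 15.4 and 12.7 at 1 hpd, then 13.6 and 12.2 at 2 hpd, then 8.15 and 7.16 at 6 hpd. The libraries from 0.5 to 2 hpd lay above all others. Its changes were 0.75 ± 0.16, 0.70 ± 0.16 and 0.57 ± 0.16, and -0.18 ± 0.16 at 6 hpd, which did not pass. Each of these 3 calls was lost without some of the libraries compared (4, 2 and 3 of 4), with adjusted p of up to 0.21. The unit near Rubcnl (transcribed-unit_31882) had 82.3 and 79.6 CPM in NT, 81.6 and 89.0 at 0.5 hpd, 94.2 and 98.2 at 1 hpd, then 118 and 131 at 2 hpd, then 82.5 and 90.6 at 6 hpd. It passed at 2 hpd only, at 0.62 ± 0.10 (edgeR adjusted p = 0.0012).

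Units over protein-coding genes were also among those that rose. The unit over Chka, choline kinase alpha, with Tcirg1 opposite (transcribed-unit_38225), had 293 and 410 CPM in NT and 485 and 681 at 6 hpd, and its changes of 0.70 at 1 hpd, 0.74 at 2 hpd and 0.73 ± 0.17 at 6 hpd passed. All 3 were lost without NT replicate 1, at adjusted p of 0.2, 0.13 and 0.094. Tcirg1, a proton pump subunit gene, rose at 6 hpd by 0.73 ± 0.15. The unit over Tmem39a (transcribed-unit_34122) had 183 and 181 CPM in NT and 258 and 272 at 6 hpd, with changes of 0.58 ± 0.10 at 2 hpd and 0.54 ± 0.10 at 6 hpd. The unit over Jaml, a junctional adhesion gene (transcribed-unit_19889), had 2.36 and 2.91 CPM in NT and 7.52 and 6.23 at 6 hpd, a change of 1.38 ± 0.24 (edgeR adjusted p = 0.0011).

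The unit partly over Lgmn and opposite Rin3 (transcribed-unit_28549) rose at 1 and 2 hpd, by 0.59 ± 0.12 and 0.62 ± 0.12, and had 0.33 ± 0.12 at 6 hpd without a call. Both calls were lost without NT replicate 2, at adjusted p of 0.085 and 0.053. The unit over Cep290, a ciliary gene (transcribed-unit_22607), rose at 6 hpd by 0.52 ± 0.15, a call lost without NT replicate 1 (0.052), NT replicate 2 (0.15) or 6 hpd replicate 2 (0.18).

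**Figure D3:**
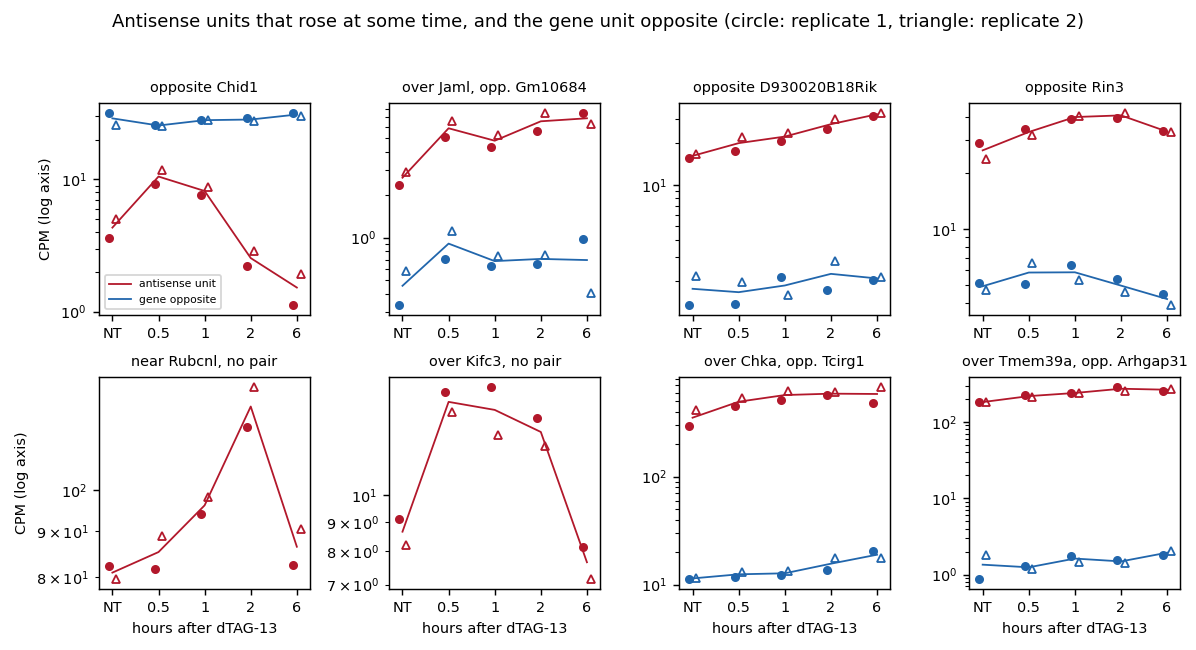
CPM (log axis) of 8 antisense units (red) and, where paired, the gene opposite (blue) in NT and at 0.5, 1, 2 and 6 h after dTAG-13, with circles for replicate 1, triangles for replicate 2 and lines through the mean. The unit opposite D930020B18Rik climbs from 15.5 and 16.8 to 31.5 and 33.2 CPM, the unit opposite Chid1 peaks at 0.5 hpd with 9.25 and 11.8 CPM, and the unit over Kifc3 is back at 8.15 and 7.16 CPM at 6 hpd.

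Of the 402 pairs at 6 hpd, 74 antisense units and 93 genes (23.1%, beside 18.1% of all Single Gene units) were called, and 24 pairs had both. Of the genes called, 47 were up and 46 down. In 16 of the 24 pairs with both called, both strands fell, in 5 both rose, in 3 the antisense unit fell while the gene rose, and in none did the antisense unit rise while the gene fell. In 35 pairs the antisense unit fell and the gene was not called, and in 15 it rose and the gene was not called. Over the 402 pairs the 2 changes had a Pearson r of 0.42 at 6 hpd and 0.36 at 0.5 hpd, across pairs measured in the same libraries. In the 54 pairs whose antisense unit fell, the median change of the gene was -0.23, beside 0.05 over all 402 pairs, and 16 of the 54 genes lay above 0, beside 222 of the 402.

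**Figure D4:**
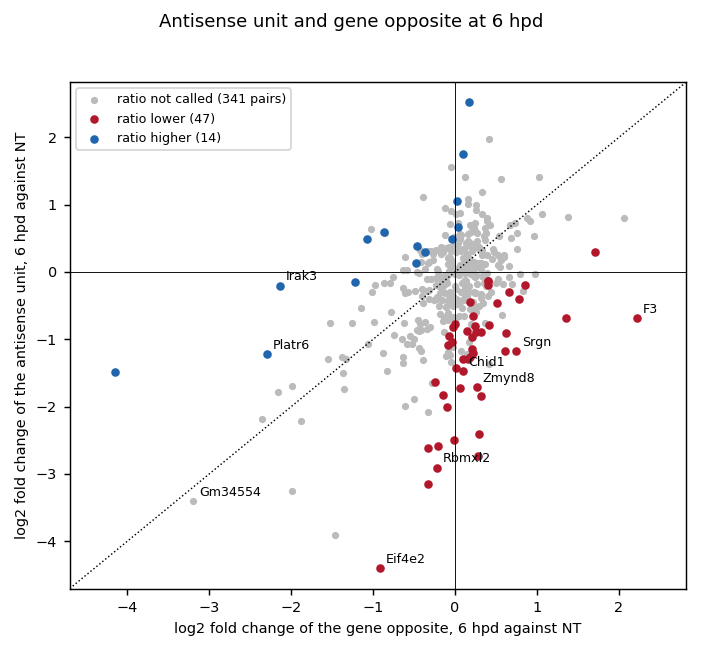
Log2 fold change at 6 hpd against NT of the antisense unit (vertical axis) and of the gene opposite (horizontal axis) for 402 pairs, coloured by the test of the antisense to sense ratio, with a dotted line where both are equal. The 47 pairs with a lower ratio lie below the line, among them those opposite Zmynd8 and Rbmxl2 near 0 on the horizontal axis and F3 on its right, and the 14 with a higher ratio lie above it, among them Irak3.

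The balance between the strands was tested directly, as the change of the log2 ratio of antisense over sense CPM (limma, over 4541 antisense and gene pairs of all antisense classes). At 0.5 hpd 1 ratio across a gene end rose and 5 fell, with 0.396% of all pairs called, 0.0881% higher and 0.308% lower. At 1 hpd 2 rose and 15 fell, with 2.4% of all pairs called, 0.529% higher and 1.87% lower. At 2 hpd 11 rose and 22 fell, with 4.98% of all pairs called, 1.1% higher and 3.88% lower. At 6 hpd 12.2% of all pairs were called, 1.98% higher and 10.2% lower. Of the 402 across gene ends 14 rose (3.48%) and 47 fell (11.7%). Among the 254 pairs whose antisense unit had no annotated gene on its strand 33 ratios fell. Without NT replicate 2 the number lower at 6 hpd was 24.

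The 3 lower ratios with the smallest p at 6 hpd came with a falling antisense unit and a gene without a call. Opposite Zmynd8 (transcribed-unit_3802) the log2 ratio changed by -0.80 ± 0.12 at 0.5 hpd and -1.97 ± 0.12 at 6 hpd (limma adjusted p = 5.1e-13). Opposite Gm32547 (transcribed-unit_37151) it changed by -2.67 ± 0.19 at 6 hpd and opposite Rbmxl2 (transcribed-unit_17194) by -2.66 ± 0.22.

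In 3 pairs the antisense unit fell and the gene rose. The antisense calls of these pairs were not checked by leaving out single libraries. Opposite F3, which encodes tissue factor, transcribed-unit_7183 had 9.63 and 13.9 CPM in NT and 6.60 and 7.92 at 6 hpd (-0.69 ± 0.19, edgeR adjusted p = 0.025). F3 had 3.77 and 2.47 CPM in NT, 6.36 and 6.84 at 0.5 hpd, then 15.8 and 13.5 at 6 hpd (2.22 ± 0.21). The antisense strand was the higher in NT and the gene the higher at 6 hpd in both replicates, and the log2 ratio fell by 1.30 at 0.5 hpd and by 2.88 ± 0.26 at 6 hpd (limma adjusted p = 3.4e-09).

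Opposite Srgn, a secretory granule proteoglycan gene, transcribed-unit_22187 had 3.63 and 4.14 CPM in NT and 1.69 and 1.75 at 6 hpd (-1.17 ± 0.23). Srgn had 3.70 and 3.78 CPM in NT and 5.97 and 6.58 at 6 hpd (0.75 ± 0.23). Both strands had separate libraries between NT and 6 hpd, in opposite directions. Opposite Arfgap3, a GTPase-activating protein gene, transcribed-unit_32588 had 3.57 and 5.23 CPM in NT and 2.32 and 2.74 at 6 hpd (-0.79 ± 0.25, edgeR adjusted p = 0.048). Arfgap3 rose by 0.42 ± 0.10. That antisense unit started 250 bp from the start of the Gm41367 unit, which ran the opposite way. The Gm41367 unit also fell at 6 hpd, by 0.668 (edgeR adjusted p = 0.032).

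In the pairs named next the ratio rose with a fall of the gene and no call for the antisense unit. Opposite Irak3, which restrains Toll-like receptor signalling, transcribed-unit_22713 had 5.79 and 4.43 CPM in NT and 4.85 and 4.08 at 6 hpd, overlapping and without a call. Irak3 fell from 74.2 and 77.0 CPM to 17.8 and 16.5, and the log2 ratio rose by 1.47 at 2 hpd and 1.95 ± 0.23 at 6 hpd (limma adjusted p = 5.8e-07). The unit over Zranb1, a deubiquitinase gene (transcribed-unit_16139), had 105 and 94.0 CPM in NT and 124 and 137 at 6 hpd without a call, while Ctbp2 opposite, a corepressor gene, fell by 0.46 ± 0.12, and the log2 ratio rose by 0.85 ± 0.13 at 6 hpd.

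Platr26 and Platr6 are long non-coding RNAs associated with pluripotency. Opposite Platr26, transcribed-unit_4541 stayed within 8.51 to 15.2 CPM without a call while Platr26 fell by 1.23 ± 0.23 at 6 hpd, and the log2 ratio rose by 1.07 ± 0.21. Opposite Platr6, transcribed-unit_21924 fell by 1.22 ± 0.24 at 6 hpd and Platr6 fell by 2.29 ± 0.20, and the log2 ratio rose by 1.04 ± 0.27. In other pairs both strands fell and the ratio was not called. Opposite Scn3a, a sodium channel gene, transcribed-unit_2974 fell by 1.69 and the gene by 1.99. Opposite Gm34554, transcribed-unit_28615 had 1.88 and 2.33 CPM in NT and 0.281 and 0.116 at 6 hpd, and the gene fell by 3.19, but this antisense unit passed the count filter through the NT libraries only.

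**Figure D5:**
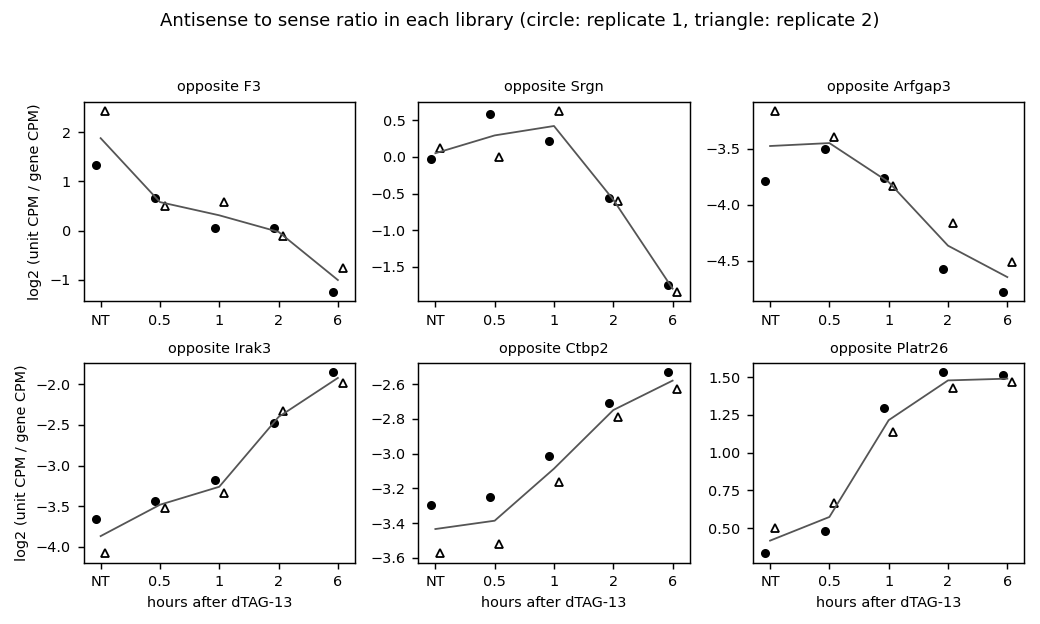
Log2 ratio of antisense unit CPM over gene CPM in each library for 6 pairs, in NT and at 0.5, 1, 2 and 6 h after dTAG-13, with circles for replicate 1, triangles for replicate 2 and a line through the mean. The ratio opposite F3 falls by 2.88 by 6 hpd and those opposite Irak3, Ctbp2 and Platr26 rise by 1.95, 0.85 and 1.07.

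Genes that make and clear such RNA were measured in the same libraries. Of 33 genes of 3' end formation and termination tested, none rose and 3 fell at 6 hpd, with a median log2 change of 0.08, where 10.4% of all Single Gene units rose and 7.73% fell with a median of 0.07. Among them were Wdr5 (-1.18 ± 0.11), a histone methyltransferase subunit, and Wdr82 (-0.37 ± 0.10), a partner of the same methyltransferases and of a termination complex. Of 37 genes of nuclear RNA decay, with a median of 0.07, 3 rose at 6 hpd, namely Ncbp2 (0.81 ± 0.11) of the cap-binding complex, Ints6 (0.57 ± 0.17) of Integrator and Zfc3h1 (0.47 ± 0.14) of an exosome adaptor, and the exosome subunit gene Exosc5 fell (-0.35 ± 0.10). At 0.5 hpd 1 gene of these lists was called, Wdr5 at -0.59 ± 0.11. Whether their changes bear on the antisense units was not tested.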

How the data were processed

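Strand-resolved nascent RNA was counted per transcription unit in 10 libraries, 2 per group. Per the submitters' processing notes, reads were aligned with BWA 0.7.17-r1188 to mm10 and handled with SAMtools 1.10 and Picard 2.12.0. The authors segmented pooled coverage on each strand into units with a 2-state hidden Markov model, named them by RefSeq and deposited raw fragment counts per unit with no normalization. Positions and classes are those the authors deposited. Deposited starts appear to count from 0 (7265 of 14888 gene starts were 1 bp below RefSeq), so plus-strand windows were moved by 1 base.

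The 28459 units past the filter (over 10 fragments in 2 or more libraries) were fitted with edgeR 4.0.16 (R 4.3.3; TMM, quasi-likelihood F-test, all groups in one fit, biological coefficient of variation 10.05%). CPM values are TMM-scaled, except those of the cell markers, which were scaled to total counts only. Ratios were tested with limma 3.58.1 on log2 CPM with a prior count of 2. Adjusted p-values (Benjamini-Hochberg, two-sided) run over all units or all 4541 pairs, with a threshold of 0.05. The study's tool, DESeq2 1.42.0, was an alternative, with library scaling, filters, pairing rules, a replicate block and leaving out each library. Scripts were tested on simulated data. Replicates of one group differed by more than sampling noise (chi-square per degree of freedom 2.69 to 9.03).

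Named were, per time and direction, the 3 called units of smallest p with both depleted libraries outside the NT range, the 5 units of highest CPM per kb, called units opposite listed genes, and the 3 called pairs of smallest p per direction at 1 and 6 hpd, beside exceptions stated. Members, lists and rules were chosen with earlier results of these data known. RefSeq gave the window sequences. Some items that these rules name are not reported here.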

Additional observations from a re-analysis of the deposited data

Results flagged for a closer look

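For 5 of the units described above the change against NT at 6 hpd differed from the change at 1 hpd by a direct comparison of these times in the same edgeR fit (Benjamini-Hochberg adjusted over all 28459 units). The unit opposite Chid1 (transcribed-unit_16210) was lower at 6 hpd than at 1 hpd by a log2 value of -2.40 (adjusted p = 0.00011), moving from above NT to below it. The unit opposite Rbmxl2 (transcribed-unit_17194) was lower by -1.08 (0.0038), a call lost without 6 hpd replicate 1 (0.061). The unit over Kifc3 (transcribed-unit_19263) was lower by -0.88 (0.0038), lost without 1 hpd replicate 1 (0.066) or 6 hpd replicate 2 (0.06). The unit opposite Zmynd8 (transcribed-unit_3802) was lower by -0.62 (0.0018), lost without 1 hpd replicate 2 (0.052). The unit opposite D930020B18Rik (transcribed-unit_23769) was higher by 0.54 (0.034), lost without any 1 of the 4 libraries compared (0.11 to 0.26). In all, 9 of the 594 units were higher and 23 lower at 6 than at 1 hpd, with 4.88% of all units called.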

How the results depend on the processing

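No called log2 value of the units named by the rules changed direction. Units picked after their values were seen were not among those checked, and counts were compared for size only. Without NT replicate 2 the median log2 change of the antisense units went from -0.01 to 0.08 at 0.5 hpd. At 1 hpd it went from -0.07 to 0.07. The cause of the moved counts was not tested. Counts are units across gene ends called higher and lower. With the replicate number as a block 12, 16, 40 and 49 rose at the 4 times in order and 19, 52, 69 and 102 fell, 18 were higher and 50 lower at 6 than at 1 hpd, and 142 passed the joint test. That fit also called more units over all classes, 3.94, 11.2, 19.1 and 26.1% of all units at the 4 times. In that fit higher ratios numbered 2, 9, 18 and 22 at the 4 times and lower ratios 8 at 0.5 hpd and 39 at 2 hpd. Deviations of same-numbered libraries correlated at 0.0742 to 0.291 and the labels do not pair them. With a mean of at least 50 fragments, 3, 14, 26 and 43 units fell at the 4 times, 4 rose at 1 hpd and 53 passed jointly. DESeq2 gave 16 lower at 1 hpd and 26 at 2 hpd. Total counts only gave 4 higher at 1 hpd and 5 between 6 and 1 hpd, and moved the median of all units at 2 hpd from -0.04 to -0.16. Fits of only the libraries compared gave 20 higher at 1 hpd, and 16 higher and 39 lower between 6 and 1 hpd. Pairing by largest overlap gave 2 higher ratios at 0.5 hpd. Pairs with both units at a mean of at least 50 fragments gave 1, 13 and 30 lower ratios at 0.5, 2 and 6 hpd. With voom weights 0 ratios rose at 1 hpd and 8 at 6 hpd. A limit of 500 bp gave 33 divergent and 0 continuing units, and 2000 bp gave 52 continuing.

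Leaving out 1 library at a time, higher units ranged from 0 to 4 at 0.5 hpd, 1 to 11 at 1 hpd, 9 to 31 at 2 hpd and 10 to 33 at 6 hpd, and lower units from 4 to 9, 9 to 31, 21 to 43 and 31 to 80. Between 6 and 1 hpd the ranges were 1 to 9 and 10 to 26, and jointly 55 to 96. Higher ratios ranged from 0 to 1, 0 to 3, 7 to 13 and 8 to 17, and lower ratios from 2 to 6, 6 to 16, 10 to 32 and 24 to 58. NT replicate 2 moved the most counts, 12 of them. Removing 1 library leaves a group with 1 sample, assumed to vary like the others. In the tally that follows, each named value was counted over all 10 libraries, of which only 4 enter its comparison. The kept calls therefore overstate its stability. Counting each named value once per library left out, the call was kept 742 times and lost 98 times, and over the other settings it was kept 487 times and lost 20 times. Low counts limit the members: 373 of 594 had a mean under 50 fragments, and of these 2 rose (0.536%) and 32 fell (8.58%) at 6 hpd, beside 1.84% and 8.6% of all units at that level.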

Other observations

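Genes of other groups moved in the same libraries, as described by lists chosen with earlier results known. Of 34 sterol synthesis genes, 26 rose at 1 hpd and 28 at 2 hpd, with none called lower, and 3 rose and 2 fell at 6 hpd. Of 47 pluripotency genes, 11, 20, 23 and 28 fell at the 4 times in order, with 3 higher at each. Of all Single Gene units 0.801, 3.56, 5.33 and 7.73% fell and 0.835, 3.55, 6.88 and 10.4% rose at these times. No unit across a gene end lay opposite Suv39h1 or Top1. One antisense unit on the Y chromosome (transcribed-unit_40757) spanned the whole TU of LOC108168534 and lay over Gm52481, a protein-coding gene on its own strand. This antisense unit had the third highest density of the 594 units and no call of its own. Its log2 ratio to LOC108168534 on the opposite strand rose by 0.60 at 6 hpd (limma adjusted p = 0.044). That call was not made under 9 of the 15 other settings tried. The unit opposite Trappc6b (transcribed-unit_27366) fell at 2 hpd by 0.47 on the log2 scale (edgeR adjusted p = 0.043), lost without NT replicate 2 (0.38) or 2 hpd replicate 1 (0.2) and with DESeq2.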
